A study of Rattus norvegicus with 12 samples.

Results

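The hearts of rats exposed to a diet rich in fat and sucrose through their dam, through their own food, through both or through neither were compared for an interaction of the exposures, meaning a difference in the effect of one exposure according to whether the other was present. All animals were Sprague Dawley rats, an outbred laboratory stock, and whole hearts were taken at 15 weeks of age. Dams called GDM ate the high fat and sucrose (HFS) diet from before mating through lactation, which the labels give as the way gestational diabetes was induced. The food of Lean dams was low in fat (LF). The pups were allotted at random to LF or HFS food at weaning, at 3 weeks. Groups are named by dam and then by offspring diet. There were 3 libraries each of Lean-LF (neither exposure), Lean-HFS (own food), GDM-LF (dam) and GDM-HFS (both). The dam's food and her metabolic state went together in this design and cannot be told apart. The labels give neither sex nor litter, so any p-value reflects only how these hearts varied, and some of them may share a dam. The design text plans 6 animals in each group, and the others were not analysed here.

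For each gene the interaction was the GDM-HFS minus Lean-HFS difference less the GDM-LF minus Lean-LF difference, in log2 units. The comparison took in every gene model whose scaled value averaged 0.5 or more over the 12 libraries, which was 12983 of 17322. An interaction of 0 means that the fold changes of the single exposures multiply. A positive value means that the effect of the dam was higher on HFS than on LF food, and, by the same arithmetic, that the effect of HFS food was higher in GDM than in Lean offspring.

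The adult heart draws most of its energy from fatty acids and adjusts its fuel genes to diet through nuclear receptors such as PPAR alpha. Maternal obesity and diabetes expose the fetal heart to excess glucose and lipid, and a long-standing idea in developmental programming is that such exposure changes the response to later overnutrition. A factorial experiment tests that idea through the interaction, whereas each exposure alone against neither gives only the effect of that exposure.

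The deposited values were whole reads multiplied by 1 constant per library and were not divided by gene length, so levels are compared between libraries and not between genes. Reads in all gene models numbered 22661235 to 31258255 per library, of which 9172734 to 14418970 lay outside ribosomal RNA models. The tissue label was checked on Myh6, the alpha myosin heavy chain of heart muscle, which was abundant in every library at 28979 to 102567 scaled units. Lean-HFS 2 stood apart from the other libraries in several gene groups. It had the lowest Myh6 value and the highest collagen and macrophage scores, at 8.94 and 6.02 against at most 8.23 and 5.40 elsewhere. A score here is the mean log2 level of a gene list. Both Lean-HFS 2 and GDM-LF 3 had low scores for fatty acid oxidation genes, at 9.01 and 9.09 against 9.35 to 9.67 in the other libraries.

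No gene passed the interaction test. With limma and Benjamini-Hochberg adjustment over all 12983 genes, 0 genes were called at an adjusted p under 0.05 (0.0%), and the smallest adjusted p was 0.999. Without adjustment, 391 genes had a p under 0.05 (3.01%), 179 with a positive interaction (1.38%) and 212 with a negative one (1.63%). A flat distribution of p-values would give 649. On the recovered reads, edgeR's quasi-likelihood test called 0 genes, with 401 at an unadjusted p under 0.05 (3.09%). DESeq2 also called 0, with 390 at that level (3.0%) and a smallest adjusted p of 0.143.

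The same fit gave more small p-values for the main effects than for the interaction. GDM against Lean, averaged over the diets, had 1459 genes at an unadjusted p under 0.05 (11.2%) and 8 calls with limma (0.0616%). HFS against LF, averaged over the dams, had 1028 genes at that level (7.92%) and 0 calls (0.0%) with limma and with edgeR, and 31 with DESeq2. Within single groups, the dam effect had 1252 genes at that level on HFS food (9.64%) and 649 on LF food (5.0%), with 2 (0.0154%) and 4 (0.0308%) limma calls. The diet effect had 676 in Lean (5.21%) and 723 in GDM offspring (5.57%), with 0 calls in each. The larger number for the dam on HFS food does not show that any gene responded differently on the 2 diets, which is what the interaction tests. The interaction is harder to measure than an averaged effect because its standard error is larger by construction. Why it had fewer small p-values than a flat distribution gives was not tested.

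**Figure D1:**
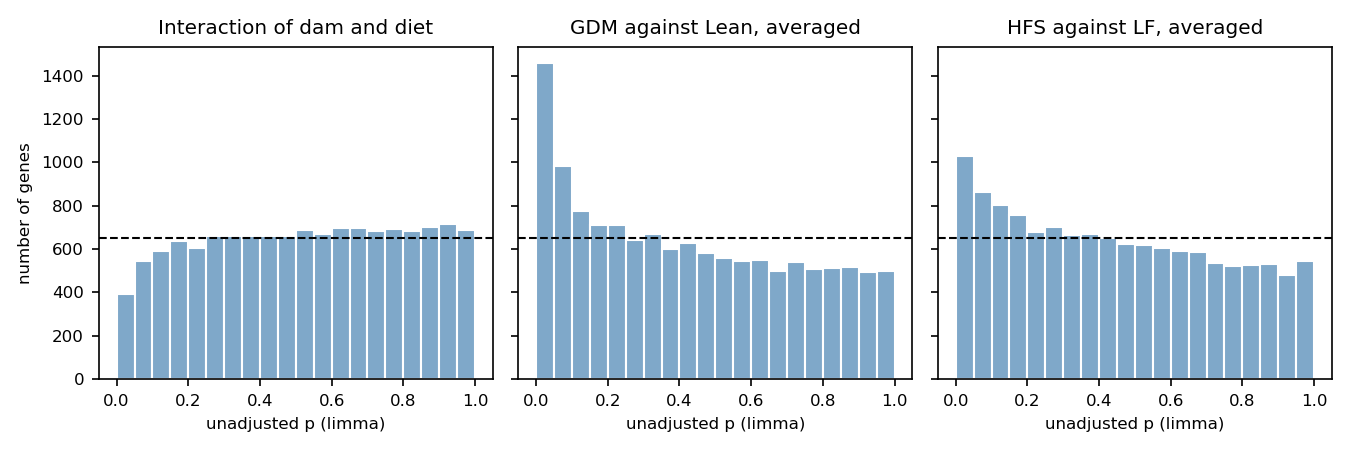
Number of the 12983 tested genes in each p-value bin of width 0.05 (horizontal axis, unadjusted limma p; vertical axis, number of genes) for the interaction and the averaged effects of dam and diet, with a dashed line at the count that a flat distribution gives. The lowest bin holds 391 genes for the interaction, below the line, against 1459 for the dam and 1028 for the diet, above it.

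The precision of the interaction was described gene by gene. Its median standard error was 0.23 log2 units, and the median 95% confidence interval reached 0.50 to either side, a factor of 1.41. These intervals are not adjusted for the number of genes tested. An interaction larger than that width could still miss the adjusted test, as for Tmem179 below. For 8722 genes (67.2%) the whole interval lay between -1 and 1, so an interaction of 2-fold or more was outside it. Among the 10906 genes whose mean was 5 or more, that held for 8721 (80.0%). Across those genes, the effect of the dam on LF and on HFS food, which share no library, correlated with a Pearson coefficient of 0.39 and a Spearman coefficient of 0.30. The effect of the diet in Lean and in GDM offspring correlated at 0.25 and 0.21. These are descriptions across genes, which are not independent replicates.

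The 8 genes called in GDM against Lean were chosen without use of the interaction, because the contrasts are orthogonal in this balanced design. For 7 of the 8, the 95% interval of the interaction covered 0. Marcksl1, which encodes a membrane-associated protein that binds actin and calmodulin, read 6.38, 4.901 and 6.94 in Lean-LF and 7.01, 4.46 and 6.31 in Lean-HFS. It read 40.8, 29.5 and 31.9 in GDM-LF and 20.9, 30.01 and 31.1 in GDM-HFS. The GDM libraries were therefore all above the Lean libraries on both diets, and the interaction was -0.28 ± 0.35 (± SE, as throughout; 95% interval -1.03 to 0.47). The deposited row counts 2 copies of Marcksl1 and has its coordinates on chromosome 1, while its annotation gives chromosome 5, so the locus behind these reads is uncertain. The other 61 named genes had the same chromosome in both places.

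Kctd16, whose protein associates with GABA-B receptors and shapes their signalling, read 4.25 to 17.1 in the 6 Lean libraries. It read 112, 82.6 and 89.2 in GDM-LF and 57.5, 90.4 and 116 in GDM-HFS. Its levels in GDM hearts on the 2 diets overlapped, and its interaction was 0.32 ± 0.60, with a wide interval of -0.96 to 1.61. Rpl30, a component of the ribosome's large subunit, was the 1 gene of the 8 that was lower in GDM hearts. It read 153 to 226 in Lean libraries, 96.7, 75.8 and 71.9 in GDM-LF and 111, 65.7 and 58.8 in GDM-HFS, with an interaction of 0.09 ± 0.28. Ribosomal protein genes have many near-identical copies in the genome, so how their reads were assigned is uncertain.

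Tmem47, a junctional membrane protein, was the most tightly bounded of these genes. It read 124 to 160.0 in Lean hearts, 204, 217 and 220.4 in GDM-LF and 199, 208 and 222 in GDM-HFS. The dam effect was 0.61 ± 0.10 on LF and 0.59 ± 0.10 on HFS food, and the interaction of -0.03 ± 0.14 had an interval of -0.32 to 0.27. Nxn, the redox protein nucleoredoxin, had a dam effect of 0.62 ± 0.10 on LF and 0.37 ± 0.10 on HFS food. Its interaction was -0.25 ± 0.15 (95% interval -0.56 to 0.06), and all GDM libraries (202 to 249) were above all Lean ones (145 to 194).

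Serpina3n, a secreted serine protease inhibitor, and Vom2r17, a vomeronasal receptor gene of a large family, were low and variable. Serpina3n read 0.463 to 2.13 in Lean libraries, 6.56, 10.3 and 13.2 in GDM-LF and 12.1, 25.7 and 3.34 in GDM-HFS. The single GDM-HFS value of 3.34 set much of its spread, and the interaction of -0.77 ± 0.88 moved to 1.44 below 0 or to 0.02 above it according to which GDM-HFS library was left out. On the untransformed scale, the difference of differences changed sign for Serpina3n and Kctd16. Vom2r17, also counted as 2 copies, had an interaction of -1.16 ± 0.81, with an interval of -2.90 to 0.58.

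**Figure D2:**
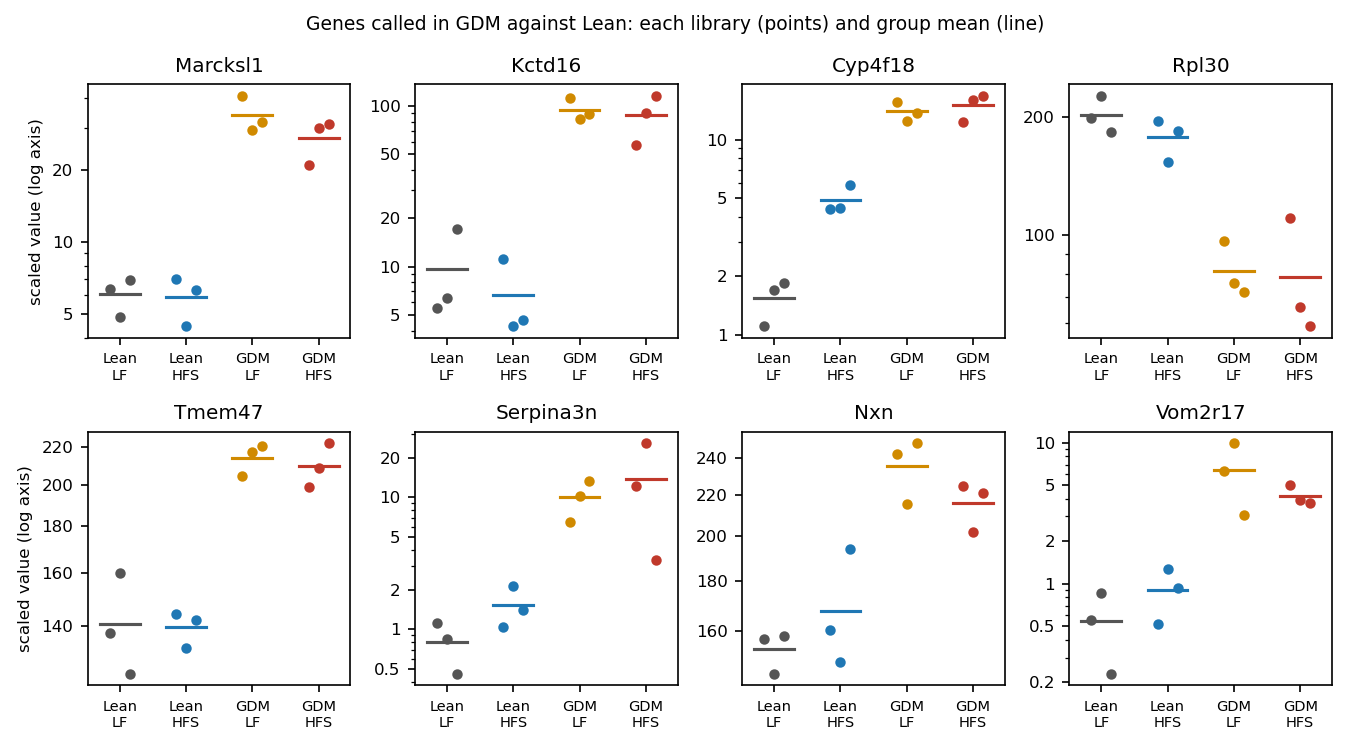
Scaled values on a log axis of the 8 genes called in GDM against Lean averaged over the diets, with 1 point per library and a line at the arithmetic mean of each of the 4 groups (3 libraries each). The GDM libraries lie apart from the Lean libraries on both diets in each panel, and Cyp4f18 also differs between Lean-LF (1.11 to 1.85) and Lean-HFS (4.42 to 5.84).

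Cyp4f18 was the gene of the 8 whose interval did not cover 0. It encodes a cytochrome P450 of the family that hydroxylates fatty acids and leukotrienes. Its values were 1.11, 1.70 and 1.85 in Lean-LF and 4.42, 4.46 and 5.84 in Lean-HFS. They were 15.5, 12.5 and 13.7 in GDM-LF and 12.3, 16.0 and 16.7 in GDM-HFS. The 3 Lean-LF libraries were thus below all others, the Lean-HFS libraries were intermediate, and both GDM groups overlapped at the top. The Lean-LF values rest on few reads, since 1 read was worth 0.246, 0.207 and 0.215 units in those libraries before scaling.

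The effect of HFS food on Cyp4f18 was 1.62 ± 0.28 in Lean offspring and 0.10 ± 0.28 in GDM offspring. The dam effect was 3.11 ± 0.28 on LF and 1.59 ± 0.28 on HFS food, giving an interaction of -1.52 ± 0.40 (95% interval -2.38 to -0.65). This interval is not adjusted for the number of genes tested, and the limma adjusted p was at least 0.999, as for every gene, so Cyp4f18 did not pass the test. The interaction ranged from -1.65 to -1.30 as each library was left out in turn. The model spans chromosome 16, 19410810 to 19528935, plus strand of Rnor_6.0, and members of this P450 family are close in sequence.

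A related question was whether hearts with both exposures showed the sum of the single effects. GDM-HFS against Lean-LF had 11 genes called by limma (0.0847%). This contrast, too, is orthogonal to the interaction. For Marcksl1 the sum of the single log2 effects was 2.42 and the combined effect 2.15. Tmcc3, an endoplasmic reticulum membrane protein, had a sum of 0.56 and a combined effect of 0.58, and Slc25a29, a mitochondrial carrier of basic amino acids, had -0.94 and -0.93. Acvr1b, a type I activin receptor, had 0.71 and 0.65.

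Departures from the sum were larger for 3 of the 11. Cyp4f18 had a sum of 4.72 and a combined effect of 3.21. On the untransformed scale its difference of differences was -2.28 scaled units. Its GDM-HFS mean was 15.0, with libraries from 12.3 to 16.7, so the size of this departure depends on the scale. Tpm2, the beta tropomyosin of smooth and slow muscle, had a sum of 0.70 and a combined effect of 1.28, with an interaction of 0.57 ± 0.28 (95% interval -0.04 to 1.18). Ddt, D-dopachrome tautomerase, had a sum of -0.26 and a combined effect of -0.64, with an interaction of -0.38 ± 0.15 (95% interval -0.70 to -0.07). Cyp4f18 and Ddt were the 2 of the 11 with an unadjusted p under 0.05, against 3.01% of all tested genes. The number of calls in this contrast depended on the library set: it was 3 without GDM-HFS 2 or GDM-HFS 3, 4 without Lean-LF 2, 6 without Lean-LF 1 or Lean-LF 3, 7 without GDM-LF 2 and 23 without Lean-HFS 2.

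Under a rule that takes the smallest p-values in each direction, 20 genes are described as the leading candidates, although none passed. In 16 of the 20 the dam effect had opposite signs on the 2 diets with both estimates more than 1 SE from 0, a pattern that selection on the interaction favours by arithmetic. Tmem179, which encodes a transmembrane protein, had the smallest p. It read 329.8, 324 and 324 in Lean-LF, 382, 299 and 304 in Lean-HFS and 409, 373 and 319 in GDM-LF, but 238, 207 and 204 in GDM-HFS. All GDM-HFS libraries were below the other 9. The interaction was -0.76 ± 0.16 (95% interval -1.10 to -0.42) and ranged from -0.86 to -0.65 over the fits that left out 1 library. Because Tmem179 was picked by its interaction p, its interval, group separation and range are not separate support. The same holds for the candidates described below.

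**Figure D3:**
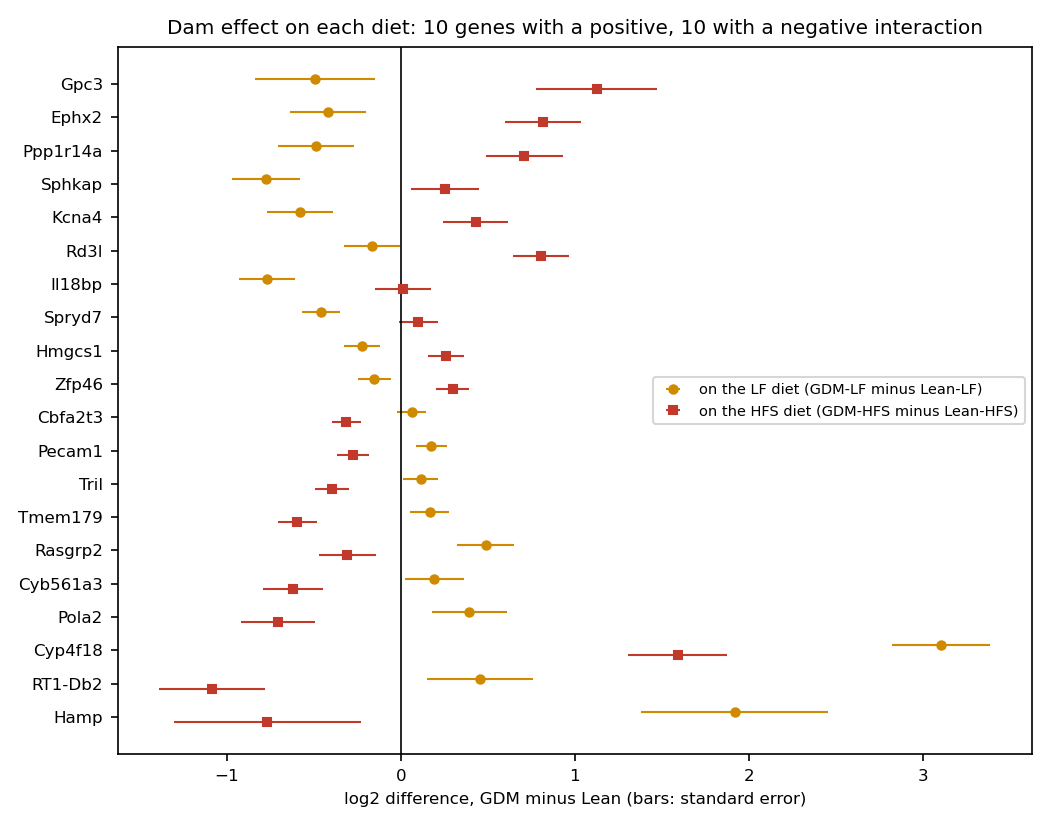
Dam effect (GDM minus Lean, log2 units, horizontal axis; bars are 1 standard error) on LF food (circles) and on HFS food (squares) for the 10 genes with the smallest p and a positive interaction and the 10 with a negative one. For Cyp4f18 both effects are positive, at 3.11 and 1.59, whereas Ephx2 has -0.42 on LF and 0.82 on HFS food.

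Among the 10 with a negative interaction, Hamp had the largest estimate. It encodes hepcidin, the iron-regulating peptide, which the heart also makes. Hamp read 6.10, 14.3 and 4.86 in Lean-LF, 19.0, 14.9 and 43.0 in Lean-HFS, 13.1, 40.03 and 44.9 in GDM-LF and 18.1, 17.0 and 7.93 in GDM-HFS. Lean-HFS lay above Lean-LF, and every other pair of groups overlapped. The interaction was -2.69 ± 0.76. The MHC class II gene RT1-Db2 was at 2.33, 3.70 and 3.34 in GDM-HFS and 4.44 to 8.29 elsewhere, so that GDM-HFS lay below all others, with an interaction of -1.54 ± 0.43. MHC genes are polymorphic and similar in sequence, and reads of related genes may be shared.

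Several other candidates were set apart by the Lean-HFS group. Tril, a partner of Toll-like receptors, was at 119, 132 and 108 in Lean-HFS and 88.1 to 107 in the other groups, with an interaction of -0.51 ± 0.14. Cbfa2t3, a transcriptional corepressor, was at 225, 238 and 236 in Lean-HFS and 176 to 223 elsewhere, with -0.37 ± 0.12. Rd3l was at 35.6, 25.7 and 35.5 in Lean-HFS and 36.5 to 57.8 elsewhere, with 0.97 ± 0.23. In these 3 genes the Lean-HFS libraries lay apart from all others and the GDM-HFS libraries did not. Pola2, a DNA polymerase alpha subunit, Rasgrp2, a Ras and Rap exchange factor, and Cyb561a3, a cytochrome b561 family member, completed the negative side together with Pecam1, with interactions of -1.10, -0.79, -0.81 and -0.45.

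On the positive side, Il18bp differed from the rest by its Lean-LF values. It encodes the secreted antagonist of the cytokine interleukin 18. Il18bp read 26.3, 32.2 and 30.3 in Lean-LF and 16.0 to 19.8 in the other 9 libraries. The ranges of the 3 exposed groups overlapped, with dam effects of -0.77 ± 0.16 on LF and 0.01 ± 0.16 on HFS food and an interaction of 0.78 ± 0.23. Sphkap, an anchoring protein of protein kinase A in cardiac muscle, read 188, 340.5 and 364 in GDM-LF, below the 383 to 589.7 of the others, and had an interaction of 1.03 ± 0.28.

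Ephx2, the soluble epoxide hydrolase that degrades epoxides made from arachidonic acid, read 82.4, 152 and 90.5 in Lean-LF and 61.0, 57.8 and 70.4 in Lean-HFS. It read 57.1, 99.7 and 83.5 in GDM-LF and 103, 115 and 115 in GDM-HFS, with an interaction of 1.24 ± 0.31. On HFS food every GDM library was above every Lean one, and on LF food the groups overlapped. Kcna4, a potassium channel subunit of the transient outward current, read 39.1, 29.0 and 29.4 in Lean-LF, 26.8, 23.2 and 24.3 in Lean-HFS, 18.9, 18.1 and 29.0 in GDM-LF and 32.8, 33.1 and 34.0 in GDM-HFS. Its interaction was 1.01 ± 0.27, and GDM libraries were again above Lean ones on HFS food.

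Gpc3, a cell-surface proteoglycan, read 31.8, 19.1 and 29.8 in GDM-HFS and 5.83 to 19.7 elsewhere, overlapping at the edge, with an interaction of 1.62 ± 0.49. Ppp1r14a, an inhibitor of myosin phosphatase in smooth muscle, was at 15.8, 20.7 and 21.3 in GDM-HFS against 9.57 to 15.7 in the others, with 1.20 ± 0.31. Hmgcs1, an enzyme of sterol synthesis, had 0.48 ± 0.15, and Spryd7 and Zfp46 had 0.56 and 0.45.

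Whether 1 group stood apart from the other 3 was counted over all tested genes. The GDM-HFS libraries were all above the other 9 in 133 genes (1.02%) and all below in 164 (1.26%). The Lean-LF libraries were all above in 103 (0.793%) and all below in 92 (0.709%). The counts were 61 (0.47%) and 72 (0.555%) for Lean-HFS and 41 (0.316%) and 44 (0.339%) for GDM-LF. The doubly exposed and the unexposed groups thus had the highest counts, and the groups with 1 exposure the lowest. A full crossing, with GDM above Lean in every library on HFS food and below in every library on LF food, was seen in 20 genes (0.154%), and the opposite in 19 (0.146%). These counts are descriptions, and no test of a difference between them was made.

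Smooth muscle contractile genes had positive interactions in 16 of 17 tested members, against 51.0% of all tested genes, with a median of 0.49 against 0.01. At an unadjusted p under 0.05, 2 were positive and 0 negative, against 1.38% and 1.63% of all tested genes. The same shares of all tested genes apply to every list below. The lists were chosen with earlier results of these data known, so their counts are descriptions and not an independent test. Members of a list were measured in the same 12 hearts and are not independent replicates. The median dam effect of the list was 0.10 on LF and 0.71 on HFS food. Cnn1, calponin, an actin-binding protein of differentiated smooth muscle, read 19.8, 50.3 and 83.7 in GDM-HFS and 5.49 to 20.5 in the other groups, with an interaction of 2.36 ± 0.79 (95% interval 0.67 to 4.05). The lowest GDM-HFS library lay within the range of the others.

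Myh11, the smooth muscle myosin heavy chain, read 502, 817 and 1206 in GDM-HFS and 328 to 484 elsewhere, with no overlap, and its interaction was 0.96 ± 0.35 (95% interval 0.21 to 1.71). Acta2, smooth muscle alpha actin, and Tagln, transgelin, were added after their values were seen. Acta2 read 249.9, 569.6 and 769 in GDM-HFS and 148 to 286 elsewhere, with an interaction of 1.03 ± 0.50. Tagln had 1.02 ± 0.50, with 145, 291 and 389.5 in GDM-HFS against 75.2 to 163. In these 4 genes GDM-HFS 1 had the lowest value of its group.

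The median of the smooth muscle list stayed positive as each library was left out, from 0.32 (Lean-HFS 1 left out) to 0.71 (GDM-HFS 1 left out), and was 0.51 without both Lean-HFS 2 and GDM-LF 3. Pericyte genes, which mark the other mural cells of vessels, had a median of -0.01, with 4 of 11 positive. Adipocyte genes, a possible sign of fat attached to the heart, had scores of 3.70, 4.60 and 5.75 in GDM-HFS and 2.91 to 4.92 elsewhere. The smooth muscle scores of the same GDM-HFS libraries were 7.83, 8.45 and 8.74, against 7.32 to 7.91 elsewhere. GDM-HFS 1 thus lay within the range of the other groups. The part of fat or large vessels in the smooth muscle values was not tested.

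Endothelial genes leaned the other way, with 18 of 19 tested members negative and a median interaction of -0.25. Of all 12983 tested genes, 6361 were negative. At an unadjusted p under 0.05, 4 members were negative and 0 positive, against 1.63% and 1.38% of all tested genes. The median dam effect was 0.07 on LF and -0.20 on HFS food. The median diet effect was 0.11 in Lean and -0.16 in GDM offspring, and GDM-HFS against Lean-LF had a median of -0.09. Endothelial scores were 7.39 to 7.53 in GDM-HFS and 7.43 to 7.56 in Lean-LF, so these groups overlapped. In these bulk samples, a difference in the number of endothelial cells and one in RNA per cell cannot be told apart. Pecam1, the junctional adhesion molecule CD31, read 453, 478 and 429 in Lean-LF, 525, 569.7 and 523 in Lean-HFS, 578, 518 and 448 in GDM-LF and 441, 436 and 457 in GDM-HFS. GDM libraries were below Lean libraries on HFS food, and the interaction was -0.45 ± 0.13 (95% interval -0.73 to -0.18).

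Tie1, an endothelial receptor tyrosine kinase, read 206, 231 and 231 in GDM-HFS and 247 to 311 elsewhere, with an interaction of -0.37 ± 0.13. GDM-HFS was below all other libraries. Egfl7, a secreted vascular protein, and Cdh5, vascular endothelial cadherin, were named after their values were seen, with interactions of -0.42 ± 0.16 and -0.30 ± 0.13. The endothelial median ranged from -0.34 to -0.17 as each library was left out and was -0.31 without both Lean-HFS 2 and GDM-LF 3.

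**Figure D4:**
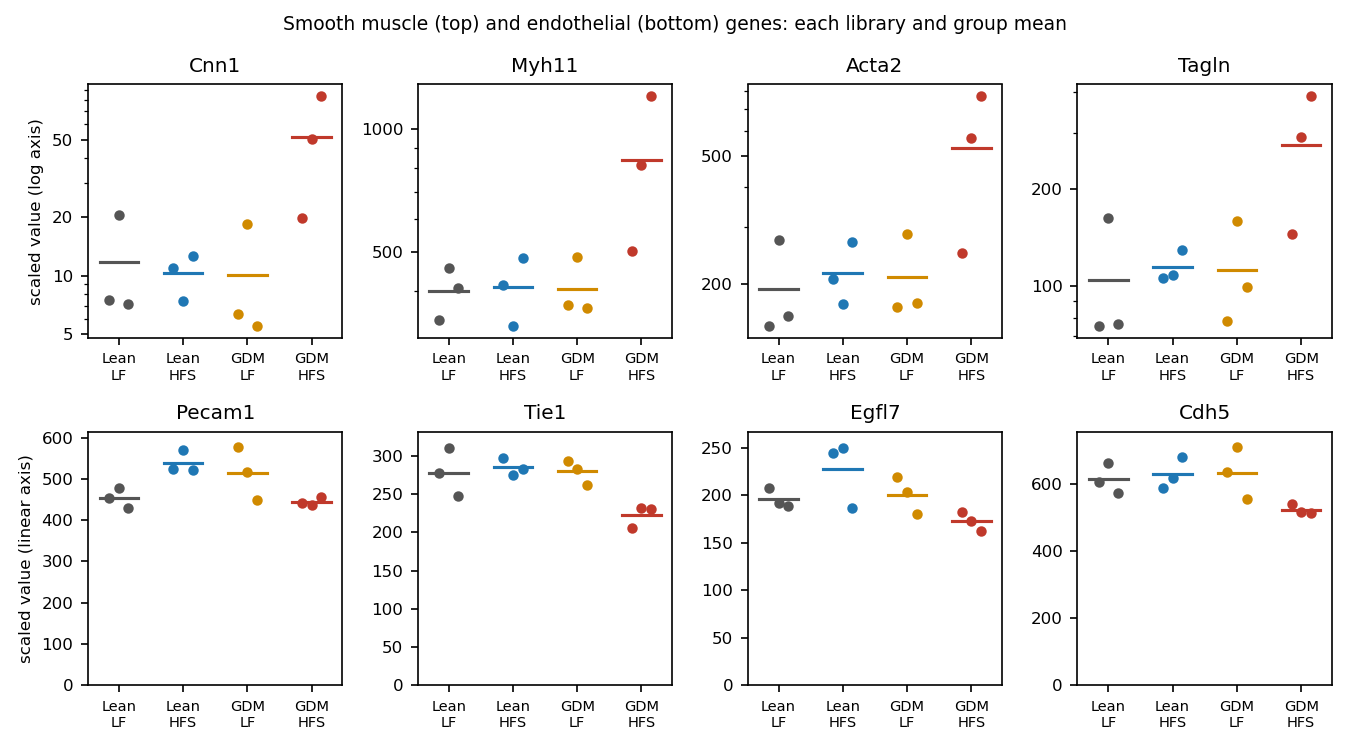
Scaled values of 4 smooth muscle genes (upper row, log axes) and 4 endothelial genes (lower row, linear axes from 0), with 1 point per library and a line at the arithmetic mean of each group of 3. The smooth muscle genes are highest in GDM-HFS 2 and 3, and Tie1 in GDM-HFS (206 to 231) lies below all other libraries (247 to 311).

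Other cell type markers gave context. Atrial genes were positive in 16 of 20, with a median of 0.45. Without Lean-HFS 2, and likewise without GDM-HFS 1, the median was 0.19, with 13 of 20 positive. Without both Lean-HFS 2 and GDM-LF 3 it was 0.38. GDM-HFS libraries scored 8.80, 8.12 and 8.01, against 6.80 to 8.36 elsewhere. Angpt1, the ligand of the endothelial receptor Tie2, and Chrm2, the muscarinic receptor of the heart, are on that list. Angpt1 was 1216, 761 and 895 in GDM-HFS and 248 to 751 elsewhere, with an interaction of 0.83 ± 0.38; without Lean-HFS 2 it was 0.41 and no longer under an unadjusted p of 0.05. Chrm2 had 0.41 ± 0.18, which was 0.27 without Lean-HFS 2, and it was under an unadjusted p of 0.05 in 6 of the 12 fits that left out 1 library. Ventricular genes were negative in 8 of 11, with a median of -0.10 that ranged from -0.19 (GDM-HFS 3 left out) to 0.05 (GDM-HFS 1 left out). How much atrial tissue each heart sample held was not tested.

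Macrophage genes, which include the complement component C1q genes and Cd68, were negative in 17 of 18, against 6361 of the 12983 tested genes. Their median was -0.33. That median was -0.09 without Lean-HFS 2, the library with the highest macrophage score, and -0.05 without both Lean-HFS 2 and GDM-LF 3. Fibroblast genes had a median of 0.01, which was 0.24 without Lean-HFS 2. Erythroid genes had a median of -0.22, with 10 of 14 negative, and ranged from -0.42 (GDM-HFS 1 left out) to -0.13 (GDM-HFS 2 left out). Ccl5, a T cell chemokine on the lymphocyte and mast cell list, read 12.5, 18.3 and 15.7 in Lean-LF, 28.3, 19.1 and 16.8 in Lean-HFS, 25.5, 19.2 and 23.8 in GDM-LF and 21.1, 12.7 and 15.6 in GDM-HFS, with an interaction of -0.93 ± 0.35 and overlap on HFS food.

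**Figure D5:**
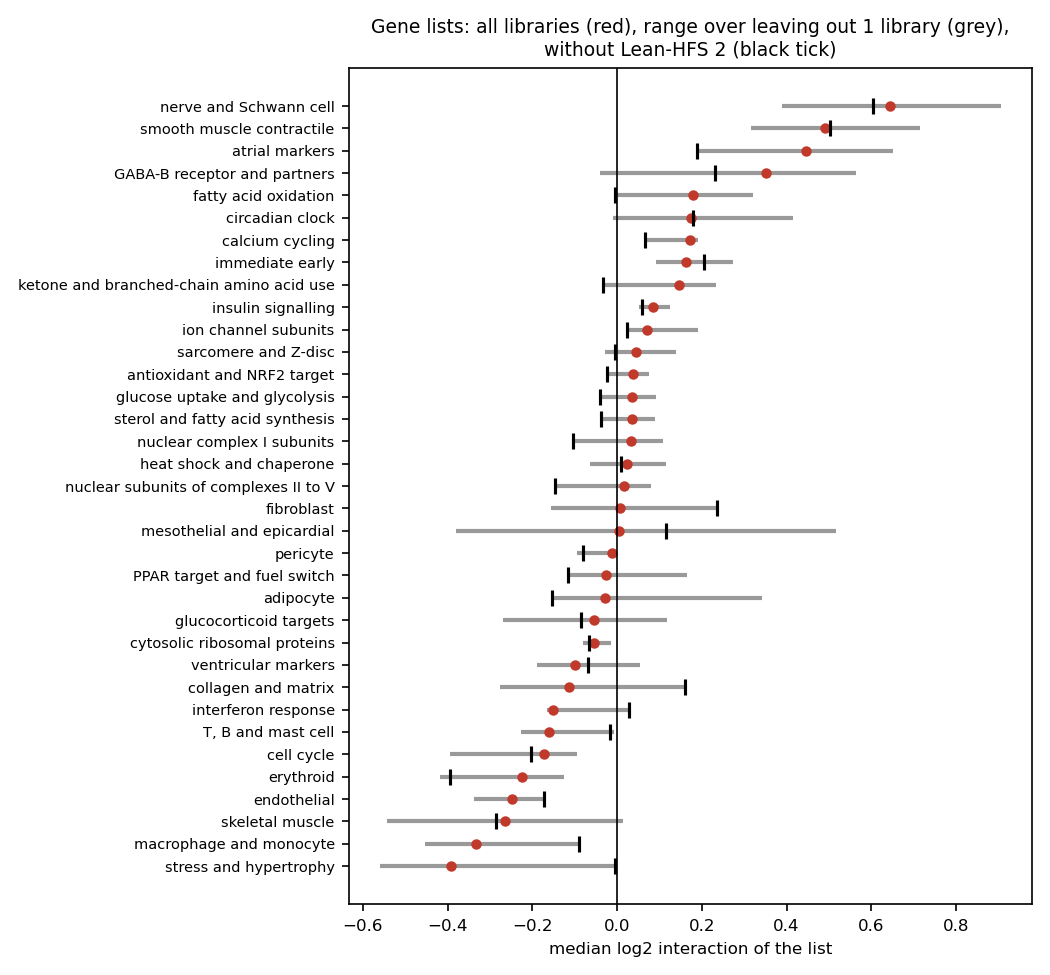
Median interaction (log2 units, horizontal axis) of each of 35 gene lists with all libraries (red points), over the fits that left out 1 library (grey bars, lowest to highest) and without Lean-HFS 2 (black ticks). The smooth muscle and endothelial medians stay on their side of 0 at 0.49 and -0.25 with all libraries, whereas fatty acid oxidation goes from 0.18 to -0.01 without Lean-HFS 2.

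With all libraries, respiratory chain genes had similar median diet effects in the offspring of both kinds of dam. Nuclear complex I genes, encoding subunits of the first enzyme of the respiratory chain, had a median diet effect of -0.22 in Lean and -0.19 in GDM offspring, with 32 of 32 tested members estimated lower on HFS food in each. Of all 12983 tested genes, 6348 were estimated lower on HFS food in Lean and 6322 in GDM offspring. The median interaction of the complex I genes was 0.03. Subunits of complexes II to V had -0.20 in both and an interaction of 0.02. Leaving out Lean-HFS 2 moved these medians to -0.10 and -0.15, and leaving out GDM-LF 3 as well moved them to -0.15 and -0.22, with 31 of 32 and 38 of 40 members negative. The sign of the median interaction in these genes therefore depended on the library set. The size of the complex I diet effect in Lean offspring also depended on Lean-HFS 2. Complex I scores were 8.73, 8.31 and 8.70 in Lean-HFS and 8.78 to 8.82 in Lean-LF.

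Fatty acid oxidation genes were positive in 22 of 23, with a median of 0.18 and 0 members under an unadjusted p of 0.05. Their median diet effect was -0.10 in Lean and 0.08 in GDM offspring. Without Lean-HFS 2, 11 of 23 were positive and the median was -0.01, and without both libraries 3 of 23 were positive and the median was -0.12. PPAR targets had a median of -0.03, from -0.12 (Lean-HFS 2 left out) to 0.17 (Lean-HFS 3 left out), and -0.26 without both libraries. Pdk4, which restrains glucose oxidation, read 400.0, 871 and 431 in Lean-LF, 1386, 672 and 1802 in Lean-HFS, 2017, 1344 and 273 in GDM-LF and 869.9, 1229 and 1396 in GDM-HFS. The groups overlapped, and the interaction was -0.82 ± 0.82. It depended on GDM-LF libraries, at -1.69 without GDM-LF 3, -0.24 without GDM-LF 1 and -2.10 without both Lean-HFS 2 and GDM-LF 3.

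Slc2a4, the insulin-responsive glucose transporter, had diet effects of -0.45 ± 0.15 in Lean and -0.48 ± 0.15 in GDM offspring, with an interaction of -0.04 ± 0.21 (95% interval -0.50 to 0.42). It read 911 to 1087 on LF and 531 to 867 on HFS food, without overlap. How many tested genes separated the diets in this way was not counted, and limma called 0 genes for HFS against LF. Dropping libraries singly moved the Slc2a4 interaction between -0.26 (Lean-HFS 2 dropped) and 0.09 (Lean-HFS 3 dropped). Dropping Lean-HFS 2 together with GDM-LF 3 gave -0.33, so the similarity of its diet effects depended on the library set. Akt1, a kinase of insulin signalling, read 431, 421 and 421 in Lean-LF and 322 to 381 in the other groups, with an interaction of 0.29 ± 0.12. Like Il18bp, it was set apart by the unexposed hearts. Acadsb, an enzyme of branched-chain acyl-CoA breakdown, had 0.91 ± 0.32, with 309, 288 and 208 in Lean-LF and 121 to 223 elsewhere.

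Of the stress and hypertrophy genes, 16 of 21 were negative, with a median of -0.39 that became -0.01 without Lean-HFS 2 and 0.13 without both libraries. Acta1, skeletal alpha actin, a fetal gene re-expressed in the loaded heart, read 1522, 5794 and 2115 in Lean-HFS and 586, 1224 and 1045 in GDM-HFS. In Lean-LF it read 2218, 2406 and 1012 and in GDM-LF 1701, 2519.7 and 1135. The interaction was -1.49 ± 0.65, and without Lean-HFS 2 it was -0.93 and no longer under an unadjusted p of 0.05.

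Fgf16, a growth factor made by heart muscle, read 63.0, 61.2 and 72.4 in Lean-LF, 45.7, 47.6 and 58.0 in Lean-HFS, 41.8, 40.9 and 44.3 in GDM-LF and 50.5, 46.2 and 44.6 in GDM-HFS. Lean-LF was above and GDM-LF below all other libraries, and the interaction was 0.53 ± 0.17. Gja1, the gap junction protein connexin 43, had 0.44 ± 0.20, which was 0.33 without Lean-HFS 2. Lmcd1, a regulator of cardiac hypertrophy, had -0.28 ± 0.11. Fos, an immediate early transcription factor, was 22.4, 27.5 and 15.9 in GDM-HFS and 3.27 to 14.6 elsewhere, with 1.17 ± 0.53.

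Cdkn1a, a cell cycle inhibitor, had an interaction of -0.94 ± 0.40, which was -1.33 without GDM-LF 3, and Plk1, a mitotic kinase, had -1.53 ± 0.60. Collagen and matrix genes were negative in 21 of 29, with a median of -0.11 that became 0.16 without Lean-HFS 2 and 0.41 without both libraries. Col4a1, a basement membrane collagen, was 1834, 1983 and 2069.7 in GDM-HFS, just below the 2072 to 2675 of the other libraries, with -0.35 ± 0.15. Timp3, whose model overlaps another gene so that its value is uncertain, had -0.29 ± 0.14. Wt1, an epicardial transcription factor, had -0.35 ± 0.16.

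Interferon response genes had a median of -0.15, with 14 of 31 positive. Without Lean-HFS 2 the median was 0.03 and 16 of 31 were positive. Ifit1, an interferon-induced RNA-binding protein, read 39.4, 37.9 and 31.2 in GDM-LF and 3.33, 2.73 and 2.29 in GDM-HFS. It read 0.832, 3.84 and 22.0 in Lean-LF and 2.86, 1.28 and 31.1 in Lean-HFS. The GDM-LF libraries were above all others, the GDM-HFS libraries were low, and 1 library of each Lean group was high, so the interaction of -3.88 ± 1.49 had an interval of -7.09 to -0.66. Ifi44, another interferon-induced gene, had -0.49 ± 0.20.

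Cytosolic ribosomal protein genes were negative in 48 of 76, with a median of -0.06 that ranged from -0.08 (GDM-HFS 3 left out) to -0.01 (Lean-HFS 1 left out). At an unadjusted p under 0.05, 1 was positive and 3 were negative, against 1.38% and 1.63% of all tested genes. Rpl32, a protein of the ribosome, was 148, 142 and 153 in Lean-LF and 109.9 to 131 elsewhere, with an interaction of 0.34 ± 0.13. The Lean-LF libraries stood above the other 9.

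The remaining genes of a list of 15 cardiac and fuel genes named for every comparison gave no interaction under an unadjusted p of 0.05, apart from Acta1. The natriuretic peptide gene Nppa varied widely, at 1161, 1468 and 428 in Lean-LF, 1712, 4960.2 and 3507 in Lean-HFS, 357, 2770.4 and 6717 in GDM-LF and 10960.0, 3061 and 2909 in GDM-HFS, and its interval of -3.10 to 2.11 was wide. Narrower intervals were found for Cpt1b, the mitochondrial fatty acid importer, at -0.30 to 0.38, and for Ppargc1a, a coactivator of mitochondrial genes, at -0.30 to 0.58. Atp2a2, the calcium pump of the sarcoplasmic reticulum, had 0.20 ± 0.28, and its interval of -0.41 to 0.80 left interactions of 2-fold outside it.

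The interactions of Nppb, Myh6 and Myh7 were -0.39 ± 0.50, 0.34 ± 0.51 and -0.18 ± 0.55. Those of Ucp3, Angptl4 and Txnip, which respond to fatty acid or glucose supply, were -0.17 ± 0.71, -0.05 ± 0.75 and -0.01 ± 0.42. Of the clock genes, Dbp had 1.12 ± 0.53 (95% interval -0.02 to 2.25) and Per2 0.17 ± 0.33. Each of these intervals covered 0. Dbp was under an unadjusted p of 0.05 in 4 of the 12 fits that left out 1 library.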

How the data were processed

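Per the labels, total RNA from rat hearts was depleted of ribosomal RNA and sequenced as strand-marked 100 bp paired reads, and STAR 2.5.1b aligned them to Rnor_6.0. The submitters' processing notes also list Trim Galore, FastQC, HOMER 4.9 and edgeR, with no roles given. The deposited table holds a signal per gene model and library that its name calls FPKM. The authors' values are whole reads times 1 step per library (0.184 to 0.262), with 99.997% of values within 0.1 of a whole read, and are not divided by length. Of nonzero recovered counts up to 40, 67.8% to 73.6% per library were even. Whether both mates of a pair were counted, which edgeR and DESeq2 would treat as separate reads, was not tested. Models that overlap on either strand may share reads, and whether the counting used strand was not tested. Of the tested genes, 1005 overlap a model holding at least 25% of their own mean and are called uncertain.

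Here the values were scaled by median-of-ratios factors, which ranged from 0.886 to 1.15. Genes with a mean of at least 0.5 were tested on log2(value + 0.1) with limma 3.58.1 in R 4.3.3 (4 group means, trend, two-sided, Benjamini-Hochberg threshold 0.05). Log2 differences understate the change of low genes. The tests were planned for FPKM; edgeR 4.0.16 and DESeq2 1.42.0 on the recovered reads were alternatives. The code was tested on simulated data.

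Named genes were the 10 with the smallest p in each direction (mean of at least 5, not uncertain), all genes called in an averaged effect (up to 12 each), up to 2 members per list with an unadjusted p under 0.05, and 15 fixed genes. Of the genes this rule names, 2 are not reported here. The 35 lists hold 777 genes, of which 729 were tested. Members and lists were chosen with earlier results of these data known. Leaving out Lean-HFS 2 and GDM-LF 3 together, and the untransformed differences, were added after seeing the data. Intervals cover the spread between libraries.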

Additional observations from a re-analysis of the deposited data

How the results depend on the processing

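The interaction had 0 calls under 27 alternative settings and also without both Lean-HFS 2 and GDM-LF 3. Its smallest adjusted p over these was 0.143 (DESeq2, Tmem179), 0.174 (atrial score as covariate, Hamp) and 0.26 (both libraries left out, Tmem179), and at least 0.545 otherwise. The count at an unadjusted p under 0.05, 391, was 209 on the values as deposited, 627 with the erythroid score as covariate, 547 with array weights, 719 without both libraries, and 292 to 606 as each library was left out, with 602 without Lean-HFS 3 and 606 without GDM-LF 3. The positive part, 179, was 93, 373 and 411 on the deposited values, with the erythroid score and without both libraries, and 133 to 313 in the leave-one-out fits. The negative part, 212, was 116 on the deposited values and 159 to 293 in those fits. Calls in GDM against Lean, 8, were 13 on the deposited values, 154 with DESeq2, 24 with array weights, 45 with the erythroid score, 5 with the 45S ribosomal RNA share, 14 without both libraries and 6 to 20 leaving out 1, the 20 without Lean-HFS 3. Calls in HFS against LF, 0, were 31 with DESeq2. Calls in GDM-HFS against Lean-LF, 11, were 50 on the deposited values, 215 with DESeq2, 213 with array weights, 2 with the atrial score, 63 with the erythroid score, 2 with the 45S share, 145 without both libraries and 3 to 23 leaving out 1. The causes of these shifts were not tested.

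The replicate block gave 17 calls in GDM-HFS against Lean-LF and 10 in GDM against Lean, and for the interaction 0 calls and 413 genes at an unadjusted p under 0.05. Whether the replicate numbers pair the samples is not settled by these data. Deviations of same-numbered libraries correlated from -0.26 to 0.23, and those of differently numbered ones from -0.23 to 0.355. Of 12 libraries, 6 correlated best with their own number. Between Lean-LF and Lean-HFS, the same-numbered pairs correlated at 0.157, 0.098 and 0.231, and the other pairs from -0.164 to 0.014. A shared litter or batch behind the numbers was not tested.

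Of the 62 named genes, 15 changed the sign of their interaction in at least 1 alternative. Without both libraries the values were Rpl30 -0.091, Nppa 0.77, Nppb 0.29, Myh6 -0.26, Myh7 0.37, Cpt1b -0.17, Atp2a2 -0.026, Per2 -0.071, Ucp3 -1.36, Angptl4 -0.89 and Txnip -0.52. With the erythroid score they were Nppa 0.22, Cpt1b -0.032, Slc2a4 0.037, Txnip 0.051 and Per2 -0.14. Array weights gave Rpl30 -0.034 and Myh7 0.038, and Angptl4 was 0.013 with quantile normalization, 0.083 with edgeR and 0.050 with DESeq2. The untransformed difference of differences, in scaled units, was Kctd16 -3.86, Serpina3n 2.99, Myh7 486.6 and Angptl4 4.84. Ranges over the fits without 1 library were Angptl4 -0.71 to 0.45, Atp2a2 0.0018 to 0.32, Cpt1b -0.073 to 0.12, Kctd16 -0.18 to 0.76, Myh6 -0.13 to 0.59, Myh7 -0.51 to 0.33, Nppa -1.69 to 0.43, Nppb -0.70 to 0.099, Per2 -0.077 to 0.41, Rpl30 -0.18 to 0.27, Serpina3n -1.44 to 0.017, Slc2a4 -0.26 to 0.091, Tmem47 -0.12 to 0.059, Txnip -0.33 to 0.22 and Ucp3 -0.79 to 0.25. Of the 35 list medians, 20 changed sign when 1 library was left out. Of 21 named genes under an unadjusted p of 0.05 beside the 20 leading candidates, 6 stayed under it in every fit without 1 library. The others were Acta1, Akt1, Angpt1, Ccl5, Cdkn1a, Chrm2, Col4a1, Fos, Gja1, Ifi44, Ifit1, Lmcd1, Plk1, Timp3 and Wt1. The 95% interval lay between -1 and 1 for 1 of 2077 genes with a mean under 5, against 8721 of 10906 at 5 or more.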

Other observations

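Nerve and Schwann cell genes had the highest list median, 0.64, with 7 of 10 tested members positive and 0 under an unadjusted p of 0.05; the median ranged from 0.39 (Lean-LF 2 left out) to 0.91 (Lean-LF 1 left out). GABA-B receptor genes and their partners had 8 of 12 positive and a median of 0.35, from -0.04 (Lean-LF 3 left out) to 0.56 (Lean-LF 1 left out). Calcium cycling genes, which set contraction and relaxation of heart muscle, were positive in 16 of 20, with a median of 0.17 and a range of 0.07 (Lean-HFS 2 left out) to 0.19 (GDM-LF 3 left out). Immediate early genes had 16 of 24 positive and a median of 0.16, from 0.09 (GDM-LF 3 left out) to 0.27 (GDM-HFS 1 left out), and insulin signalling genes 18 of 22 and 0.09, from 0.05 (Lean-HFS 1 left out) to 0.12 (Lean-HFS 3 left out). Cell cycle genes were negative in 22 of 30, with a median of -0.17, from -0.40 (GDM-HFS 1 left out) to -0.09 (GDM-HFS 3 left out). Over all tested genes the median was 0.01 and 51.0% were positive.

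Clock genes had 11 of 17 positive and a median of 0.17, which ranged from -0.01 (Lean-LF 1 left out) to 0.41 (Lean-LF 3 left out). Ketone and branched-chain amino acid genes had a median of 0.15, from -0.03 (Lean-HFS 2 left out) to 0.23 (Lean-HFS 1 left out), and antioxidant genes 0.04, from -0.02 (Lean-HFS 2 left out) to 0.07 (GDM-HFS 1 left out). Skeletal muscle genes had -0.27, from -0.54 (GDM-HFS 1 left out) to 0.01 (Lean-LF 3 left out). Glucocorticoid targets had -0.05, from -0.27 to 0.12, sterol and fatty acid synthesis 0.03, from -0.04 to 0.09, and glucose uptake and glycolysis 0.04, from -0.04 to 0.09. Sarcomere genes had 0.04, from -0.03 to 0.14, heat shock genes 0.02, from -0.06 to 0.12, adipocyte genes -0.03, from -0.15 to 0.34, and mesothelial and epicardial genes 0.01, from -0.38 to 0.52. The sign of each of these medians thus changed with the library left out. Ion channel subunits had 0.07, from 0.02 to 0.19, and lymphocyte and mast cell genes -0.16, from -0.23 to -0.01.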
